A study of Rattus norvegicus with 8 samples.

Results

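The genes described here are AP-1 factors and immediate early genes of the rat colon: the FOS family (Fos, Fosb, Fosl1, Fosl2), the JUN family (Jun, Junb, Jund), and the early response genes Atf3, Egr1 and Ier3. They were chosen by the measured difference of Fosl1 between n-6 colitis and healthy colon, and their probes were found by the gene name in the scanner files. Of 10 symbols, 9 matched a gene name, giving 9 genes with 11 probes among 18170 genes tested and 30367 probes on the array. Fosb had no probe under its own name. The files carry 1 probe under an uncharacterised locus name whose RefSeq accession belongs to Fosb, and it is given beside the others but not counted with them. All 11 probes passed the filter on dim signal.

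RNA from the colon of female Wistar rats, 14 weeks old, was hybridised to Agilent 1-colour arrays. Each of 4 groups had 2 arrays, whose number limits the precision (n = 2 a group throughout). Diets ran for 8 weeks. The ALA colitis group was fed alpha-linolenic acid, a plant n-3 fatty acid, the fish oil colitis group was fed fish oil, a source of eicosapentaenoic and docosahexaenoic acid, and the n-6 colitis group was fed sunflower oil. These 3 groups were given DSS (dextran sulfate sodium, which damages the lining of the colon) at 5% over 7 days. The healthy group was fed sunflower oil and received no DSS. Every array carried pooled RNA of 6 rats, so both healthy arrays hold the same animals, since that group had 6 rats. The colitis groups had 10 rats each, and the labels do not say whether their arrays share a pool. The p-values therefore measure the spread between arrays and not between rats. The study set the n-3 diets against the n-6 diet. A single slide held all 8 arrays: ALA (columns 1 and 2) and healthy (columns 3 and 4) in row 1, fish oil (columns 1 and 2) and n-6 (columns 3 and 4) in row 2. Slide position and group therefore cannot be told apart. Fish oil replicate 1 was the dimmest array, with 54.0% of probes well above background, against 59.8% to 70.1% on the other 7.

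AP-1 is a dimer of leucine zipper proteins in which a FOS protein pairs with a JUN protein, or JUN proteins pair with each other, and binds the DNA motif TGANTCA or its longer cyclic AMP response form. Many of these genes are immediate early genes, whose transcription begins within minutes of a growth factor, stress or cytokine signal through MAP kinases, SRF and ETS factors, without new protein synthesis. In the gut, AP-1 is known for its part in epithelial renewal, wound repair and inflammation, and FRA-1, the product of Fosl1, for driving motility and matrix remodelling genes.

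Promoter sequence was taken from RefSeq for the GRCr8 build, in windows of 250 bases before to 50 bases after each gene's start. It was found for 6 of the 10 symbols: Fosb, Fosl1, Fosl2, Junb, Jund and Egr1. Fosl1 is shown because the choice of genes rests on it. Jund is shown as the only one of the 6 with the full cyclic AMP response motif. Each line gives the 250 bases before the start, 5′ to 3′ on the gene's strand. Capitals mark TGACG cores on either strand (read as CGTCA on the other one), the full motif TGACGTCA, which holds a TGACG core on both strands, and the EGR motif GCGTGGGCG.
Fosl1, chr1:212183635-212183884, + strand: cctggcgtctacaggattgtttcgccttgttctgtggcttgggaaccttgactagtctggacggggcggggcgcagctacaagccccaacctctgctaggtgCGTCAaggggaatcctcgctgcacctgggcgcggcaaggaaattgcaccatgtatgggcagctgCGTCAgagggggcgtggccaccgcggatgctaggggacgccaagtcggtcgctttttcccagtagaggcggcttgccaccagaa
Jund, chr16:18769772-18770021, - strand: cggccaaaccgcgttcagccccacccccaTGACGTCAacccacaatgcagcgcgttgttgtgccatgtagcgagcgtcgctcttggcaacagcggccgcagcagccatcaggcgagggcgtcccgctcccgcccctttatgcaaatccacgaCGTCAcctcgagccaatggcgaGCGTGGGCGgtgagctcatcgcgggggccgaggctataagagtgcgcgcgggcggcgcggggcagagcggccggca

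The Fosl1 window held 2 TGACG cores, at bases -148 and -84 from the start, and none of the longer motifs. The Jund window held TGACGTCA at -221, a separate TGACG core at -98 and GCGTGGGCG at -76. Of the other windows, that of Egr1 held 2 CArG boxes, the motif bound by SRF, at -105 and -83 and 2 TGACG cores, and that of Junb held 1 TGACG core. TGANTCA was found in none of the 6 windows. Among 33469 promoter windows of the same 300 bases, both strands searched, 7.33% held TGANTCA, 1.83% TGACGTCA, 21.2% a TGACG core, 1.64% a CArG box and 0.544% GCGTGGGCG. These matches describe letters only and say nothing of whether a factor binds there.

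Fosl1, whose product FRA-1 pairs with JUN proteins, was the member with the widest differences between groups. Its probe lies at rn4 chr1:208099035-208099094 on the + strand, from base 1579 of the transcript. Levels here are log2 processed signals after subtracting each array's own 75th percentile, which is 0 on this scale. Fosl1 read -3.68 and -3.85 in ALA colitis, -3.65 and -4.26 in fish oil colitis and -1.34 and -1.31 in n-6 colitis, against -5.28 and -4.71 in healthy colon (replicates 1 and 2). The n-6 arrays were the highest, the ALA and fish oil arrays lay between and overlapped each other, and the healthy arrays were the lowest. The signal was dim: the spot intensity was 21.3 and 24.2 in ALA colitis, 9.21 and 16.9 in fish oil colitis and 159 and 96.7 in n-6 colitis, against 7.87 and 16.8 in healthy colon. Fish oil replicate 1 and healthy replicate 1 were not well above background, so each of these groups measured Fosl1 on 1 of its 2 arrays.

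Fosl1 was 3.67 higher in n-6 colitis than in healthy colon on the log2 scale, with healthy replicate 1 not well above background. This is the difference by which the genes were chosen and is given as a description. The log2 difference was -2.44 for ALA colitis against n-6 colitis and -2.63 for fish oil colitis against n-6 colitis. It was 1.23 for ALA colitis and 1.04 for fish oil colitis against healthy colon. These 4 share arrays with the choice and are also not tested. The comparison of ALA with fish oil uses none of those arrays, and there Fosl1 differed by 0.19 (95% interval -0.64 to 1.02, limma adjusted p = 0.858). With a normexp background correction, an alternative that compresses dim signals by adding an offset of 50, the differences shrank to 1.62 for n-6 against healthy, -1.21 for ALA against n-6 and -0.85 for fish oil against n-6. Against healthy colon they were then 0.41 for ALA and 0.76 for fish oil colitis, and ALA minus fish oil was -0.35.

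**Figure D1:**
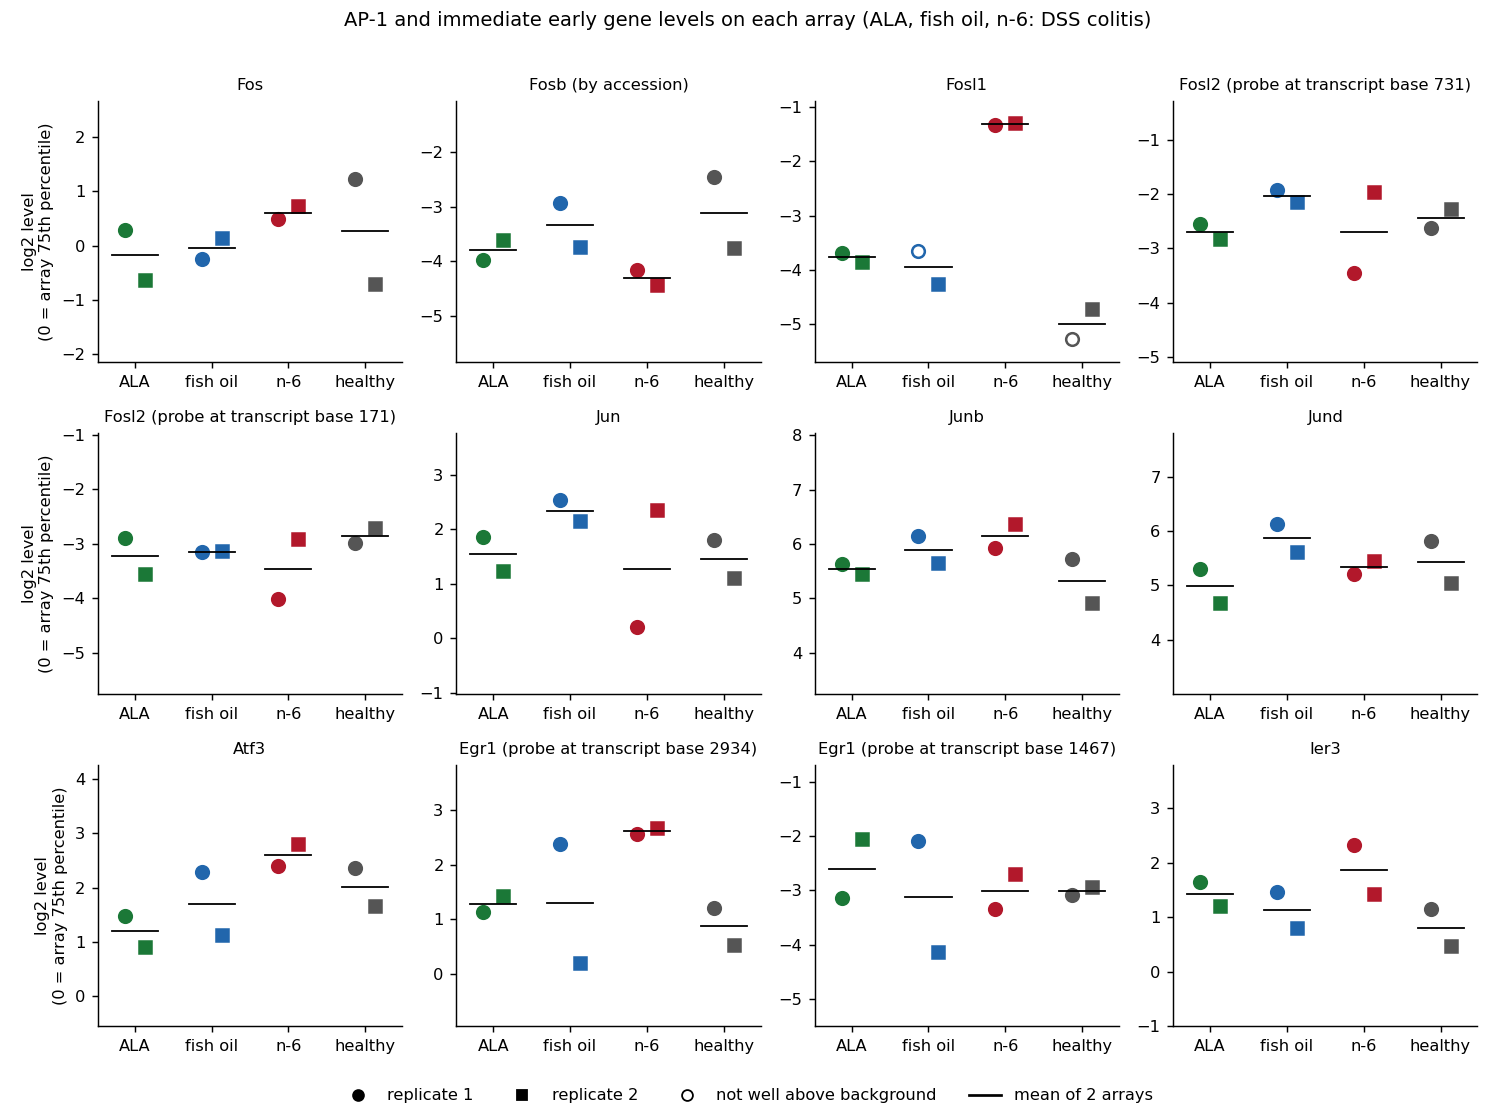
Log2 level of each probe on each array (vertical axis, 0 is the array's 75th percentile, every panel spans the same number of log2 units) by group (horizontal axis). Circles are replicate 1, squares replicate 2, open symbols are not well above background and lines are the mean of the group's 2 arrays; the n-6 arrays of Fosl1 lie at -1.34 and -1.31, above the other 6, while those of Jun lie apart at 0.21 and 2.35.

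Markers of other cell types also differed between these groups. The summed level of 6 red cell markers, as log2, was 3.84 to 3.89 in ALA colitis, 3.33 to 3.34 in fish oil colitis and 7.47 to 8.06 in n-6 colitis, against 2.81 to 2.99 in healthy colon. That of 6 fibroblast markers was 5.98 to 6.19, 5.86 to 6.30 and 6.83 to 7.51 in the same colitis groups, against 5.57 to 6.09 in healthy colon. For both lists the n-6 arrays lay above all others, as they did for Fosl1. The sum of 8 neutrophil markers was -0.36 to 0.57 in ALA colitis, -0.76 to 0.047 in fish oil colitis and -0.35 to 1.22 in n-6 colitis, against -2.17 to -1.30 in healthy colon, with Elane and Cxcr2 not well above background on any array. The sum of 7 macrophage markers was 5.88 to 5.90, 5.46 to 5.88 and 5.89 to 5.91 in the same order of colitis groups, against 4.82 to 4.93 in healthy colon. All 12 epithelial markers were well above background on at least 1 array, and their sum ran from 9.10 to 9.25 in ALA colitis, 9.44 to 10.11 in fish oil colitis and 8.26 to 9.62 in n-6 colitis, against 9.34 to 9.50 in healthy colon. The part of these cell types in the Fosl1 levels was not tested. In RNA of whole tissue, fewer cells of a type and less RNA per cell cannot be told apart.

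The genes whose levels most resembled Fosl1 over the 8 arrays, among 13170 genes compared, were Fcer1g (Pearson r = 0.987), Pomp (0.987), Igf1 (0.984), Snap29 (0.983) and Il1rn (0.974). Fcer1g encodes the gamma chain of Fc receptors, Pomp a proteasome assembly factor, Igf1 a growth factor, Snap29 a membrane fusion protein and Il1rn the interleukin-1 receptor antagonist. Il1rn read 2.04 and 2.17 in ALA colitis, 2.66 and 1.48 in fish oil colitis and 4.09 and 3.82 in n-6 colitis, against 0.72 and 0.86 in healthy colon. Pomp spanned a far narrower range, with 4.43 and 4.40 in ALA colitis, 4.44 and 4.31 in fish oil colitis and 4.84 and 4.98 in n-6 colitis, against 4.15 and 4.31 in healthy colon. The 8 points share their arrays and their groups, so these coefficients describe the order of the groups and carry no p-value.

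**Figure D2:**
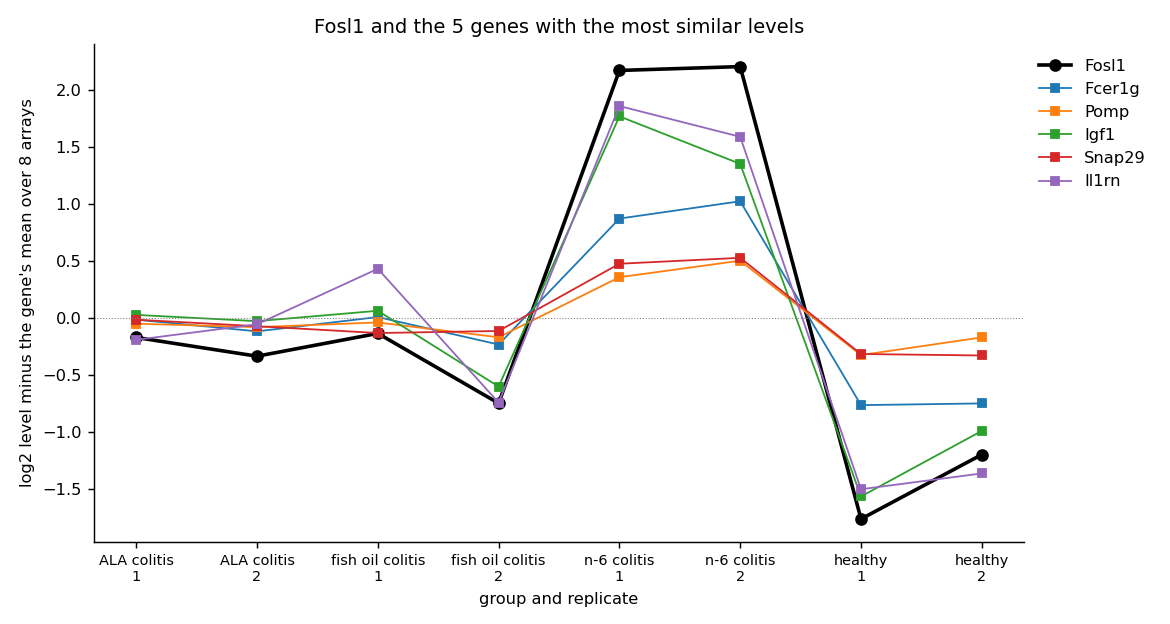
Log2 level minus each gene's own mean over the 8 arrays (vertical axis) for Fosl1 and the 5 genes most like it, by group and replicate (horizontal axis). All 6 genes are highest on the n-6 arrays and lowest on a healthy array; Fosl1 has the widest range, and the lines join separate samples only to show the pattern.

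Among the other FOS family genes, Fos, the founding partner of JUN and the standard marker of recent stimulation, showed no separation of colitis from healthy colon. Fos, probed at rn4 chr6:109561941-109562000, read 0.28 and -0.64 in ALA colitis, -0.25 and 0.14 in fish oil colitis and 0.48 and 0.72 in n-6 colitis, against 1.22 and -0.70 in healthy colon. The healthy arrays held both the highest and the lowest value and so enclosed every colitis array. Their difference of 1.92 is one that 4.07% of all genes reached or passed between the same healthy arrays, which carry the same rats. Fos differed by -0.78 between ALA and n-6 colitis (95% interval -2.29 to 0.73, limma adjusted p = 0.953) and by -0.65 between fish oil and n-6 colitis (-2.16 to 0.86, adjusted p = 0.644). Neither is larger than the spread between arrays by this test. The genes most like Fos over the 8 arrays were Hspa4l (r = 0.940), Rcn3 (0.931), Ppp1r14c (0.930), Spata20 (0.905) and Cpe (0.902), none of which is an AP-1 gene.

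Fosl2 encodes FRA-2, which like FRA-1 lacks the strong activation domain of FOS. Its brighter probe, from base 731 of the transcript, read -2.56 and -2.83 in ALA colitis, -1.92 and -2.14 in fish oil colitis and -3.45 and -1.95 in n-6 colitis, against -2.62 and -2.27 in healthy colon. The n-6 arrays spanned those of all other groups but fish oil replicate 1. The dimmer probe, from base 171, read -2.88 and -3.56, -3.15 and -3.14, and -4.00 and -2.91 in ALA, fish oil and n-6 colitis, against -2.98 and -2.72 in healthy colon. Both probes put n-6 replicate 1 lowest of the 8 arrays. For the brighter probe, ALA minus fish oil was -0.66 (95% interval -1.84 to 0.52, limma adjusted p = 0.645) with no overlap of the arrays, whereas the dimmer probe differed by -0.077 and its arrays overlapped. The ALA minus n-6 difference was 0.0084, and it turned negative when arrays were scaled to their median (-0.19) or by quantiles (-0.12). The files give no genome position for either Fosl2 probe.

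The probe identified as Fosb through its accession read -3.97 and -3.62 in ALA colitis, -2.93 and -3.73 in fish oil colitis and -4.17 and -4.45 in n-6 colitis, against -2.46 and -3.76 in healthy colon. FOSB is a FOS family activator with an induction like that of FOS. The n-6 arrays were the 2 lowest of the 8, the opposite end from Fosl1. Fosb differed by 0.98 between fish oil and n-6 colitis (95% interval -0.21 to 2.16, limma adjusted p = 0.448) and by 0.51 between ALA and n-6 colitis (-0.67 to 1.70, adjusted p = 0.964). For n-6 against healthy the difference was -1.20, given as a description, and with normexp it was -0.23.

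Of the JUN family, Jun encodes the JUN protein that forms AP-1 with any FOS partner and is itself raised by JNK signalling. Jun, probed at rn4 chr5:115359410-115359469, read 1.87 and 1.24 in ALA colitis, 2.54 and 2.15 in fish oil colitis and 0.21 and 2.35 in n-6 colitis, against 1.80 and 1.1 in healthy colon. The n-6 arrays held the lowest of the 8 values and, in replicate 2, the second highest. Jun was 1.07 higher in fish oil than in n-6 colitis (95% interval -0.55 to 2.69, limma adjusted p = 0.503), and this difference was 2.14 without n-6 replicate 2 and -0.0029 without n-6 replicate 1. It thus rests on 1 n-6 array. ALA minus fish oil was -0.79 (-2.42 to 0.83, adjusted p = 0.688), with no overlap of the arrays.

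Junb encodes a JUN protein with weaker activation that often restrains JUN. Its probe at rn4 chr19:24833225-24833284 read 5.63 and 5.45 in ALA colitis, 6.15 and 5.65 in fish oil colitis and 5.93 and 6.37 in n-6 colitis, against 5.73 and 4.91 in healthy colon. Both n-6 arrays lay above both ALA arrays and both healthy arrays, and fish oil overlapped n-6. Junb differed by -0.61 between ALA and n-6 colitis (95% interval -1.54 to 0.31, limma adjusted p = 0.926) and by -0.25 between fish oil and n-6 colitis (-1.17 to 0.67, adjusted p = 0.780). For n-6 against healthy, the description is a difference of 0.83.

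Jund, the JUN protein present in resting cells and less dependent on stimulation, had the smallest p of all members between the n-3 diets. Its probe at rn4 chr16:19239707-19239766 read 5.31 and 4.67 in ALA colitis, 6.13 and 5.61 in fish oil colitis and 5.22 and 5.45 in n-6 colitis, against 5.82 and 5.04 in healthy colon. The fish oil arrays lay above both ALA and both n-6 arrays and overlapped the healthy arrays. ALA minus fish oil was -0.88 (95% interval -1.85 to 0.082, limma adjusted p = 0.523), which does not pass the threshold of 0.05. Fish oil minus n-6 was 0.54 (-0.42 to 1.51, adjusted p = 0.556). For n-6 against healthy the difference was -0.099, and it became 0.045 when arrays were scaled to their median. The Jund window printed above is the one with TGACGTCA and GCGTGGGCG.

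Atf3 encodes a stress-induced zipper protein that pairs with JUN proteins and mostly represses. The position given for its probe, rn4 chr13:107191582-107191614, is shorter than the probe's 60 bases. The probe read 1.48 and 0.91 in ALA colitis, 2.28 and 1.12 in fish oil colitis and 2.40 and 2.79 in n-6 colitis, against 2.36 and 1.66 in healthy colon. The n-6 arrays were the highest, each above every array of the other groups, and the ALA arrays lay below both healthy arrays. Atf3 was the only member with an unadjusted p under 0.05 in any tested comparison: ALA minus n-6 was -1.40 (95% interval -2.55 to -0.25, limma unadjusted p = 0.0234), and the p adjusted over all genes was 0.838. Fish oil minus n-6 was -0.89 (-2.04 to 0.25, adjusted p = 0.461). ALA minus healthy was -0.81 (-1.96 to 0.33, adjusted p = 0.794), and n-6 minus healthy was 0.59 as a description.

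Egr1 encodes a zinc finger factor induced through SRF, and the CArG boxes in its window are of the kind SRF binds. Its brighter probe, at rn4 chr18:27347173-27347232 from base 2934 of the transcript, read 1.13 and 1.43 in ALA colitis, 2.39 and 0.19 in fish oil colitis and 2.57 and 2.67 in n-6 colitis, against 1.21 and 0.53 in healthy colon. Its n-6 arrays were the highest and close together, while its fish oil arrays lay 2.19 apart, a gap that 1.68% of all genes reached or passed in that group. Egr1 differed by -1.34 between ALA and n-6 colitis (95% interval -2.94 to 0.25, limma adjusted p = 0.890) and by -1.33 between fish oil and n-6 colitis (-2.92 to 0.27, adjusted p = 0.447). The fish oil minus n-6 difference was -2.43 without fish oil replicate 1 and -0.23 without fish oil replicate 2.

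The other Egr1 probe, at chr18:27346058-27346117 from base 1467, did not repeat this. It read -3.15 and -2.05 in ALA colitis, -2.09 and -4.14 in fish oil colitis and -3.34 and -2.69 in n-6 colitis, against -3.08 and -2.93 in healthy colon. Its n-6 and healthy arrays overlapped. On this probe the ALA minus n-6 difference was 0.41 and the n-6 minus healthy difference -0.0077, against -1.34 and 1.75 on the brighter one. Both probes showed the wide gap between the fish oil arrays. With the mean of the probes in place of the brighter one, Egr1 differed by -0.46 between ALA and n-6 colitis and by -0.71 between fish oil and n-6 colitis.

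Ier3 encodes a short-lived protein that modulates survival and ERK signalling. Its probe at rn4 chr20:3076832-3076891 read 1.65 and 1.21 in ALA colitis, 1.47 and 0.80 in fish oil colitis and 2.33 and 1.42 in n-6 colitis, against 1.15 and 0.47 in healthy colon. Both n-6 and both ALA arrays lay above both healthy arrays, and the colitis groups overlapped one another. Ier3 differed by 0.62 between ALA colitis and healthy colon (95% interval -0.46 to 1.70, limma adjusted p = 0.807). Against n-6 colitis the difference was -0.45 for ALA (-1.53 to 0.63, adjusted p = 0.969) and -0.74 for fish oil (-1.82 to 0.34, adjusted p = 0.493).

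Across the members, the comparison of each n-3 diet with the n-6 diet is the one the study was built on. In ALA against n-6 colitis, 7 of 9 members were lower and 2 higher, with differences from -2.44 for Fosl1 to 0.27 for Jun. Their median was -0.61 (-0.53 without Fosl1), against 0.072 over all genes. The arrays of 5 members (Fos, Fosl1, Junb, Atf3 and Egr1) lay below those of n-6 without overlap, and 13.1% of all genes did so. None lay above without overlap, against 16.9% of all genes. Fosl1 is in these counts as a description only, since its high level on the n-6 arrays led to its choice. Egr1 is in them by its brighter probe. On its other probe the ALA and n-6 arrays overlapped, with a difference of 0.41. By limma, 0 of the 8 members tested had an adjusted p under 0.05 and 1 (Atf3) an unadjusted p under 0.05, which 5.79% of all genes had. Among all genes, 0.0275% were called, which is 5 genes.

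In fish oil against n-6 colitis, 6 of 9 members were lower and 3 (Fosl2, Jun and Jund) higher, with a median of -0.65 (-0.45 without Fosl1) against 0.0083 over all genes. Fos, Fosl1, Atf3 and Egr1 lay below n-6 without overlap, 4 members against 23.6% of all genes, and Jund lay above, against 23.1%. Fosl1 again counts as a description only. The other Egr1 probe differed by -0.098, and its arrays overlapped. By limma, 0 of 8 members tested passed the adjusted threshold and 0 the unadjusted one, which 12% of all genes passed, and 0.0385% of all genes were called, which is 7 genes. Both comparisons share the n-6 arrays.

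Between the n-3 diets, 7 of 9 members were lower in ALA than in fish oil colitis, with a median of -0.36 against 0.014 over all genes. Fosl2, Jun, Junb and Jund lay lower without overlap, 4 members against 20.4% of all genes. Fosl2 did so on its brighter probe only, since the dimmer one differed by -0.077 and its arrays overlapped. None lay higher without overlap, against 25.3%. By limma, 0 of 9 members and 0% of all genes passed the adjusted threshold. No member had an unadjusted p under 0.05, which 1744 genes (9.6% of all) had. The differences ran from -0.88 for Jund to 0.29 for Ier3, and that of Egr1 was -0.013, which scaling by quantiles turned to 0.013. Scaling by quantiles also turned that of Fosl1, to -0.092.

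**Figure D3:**
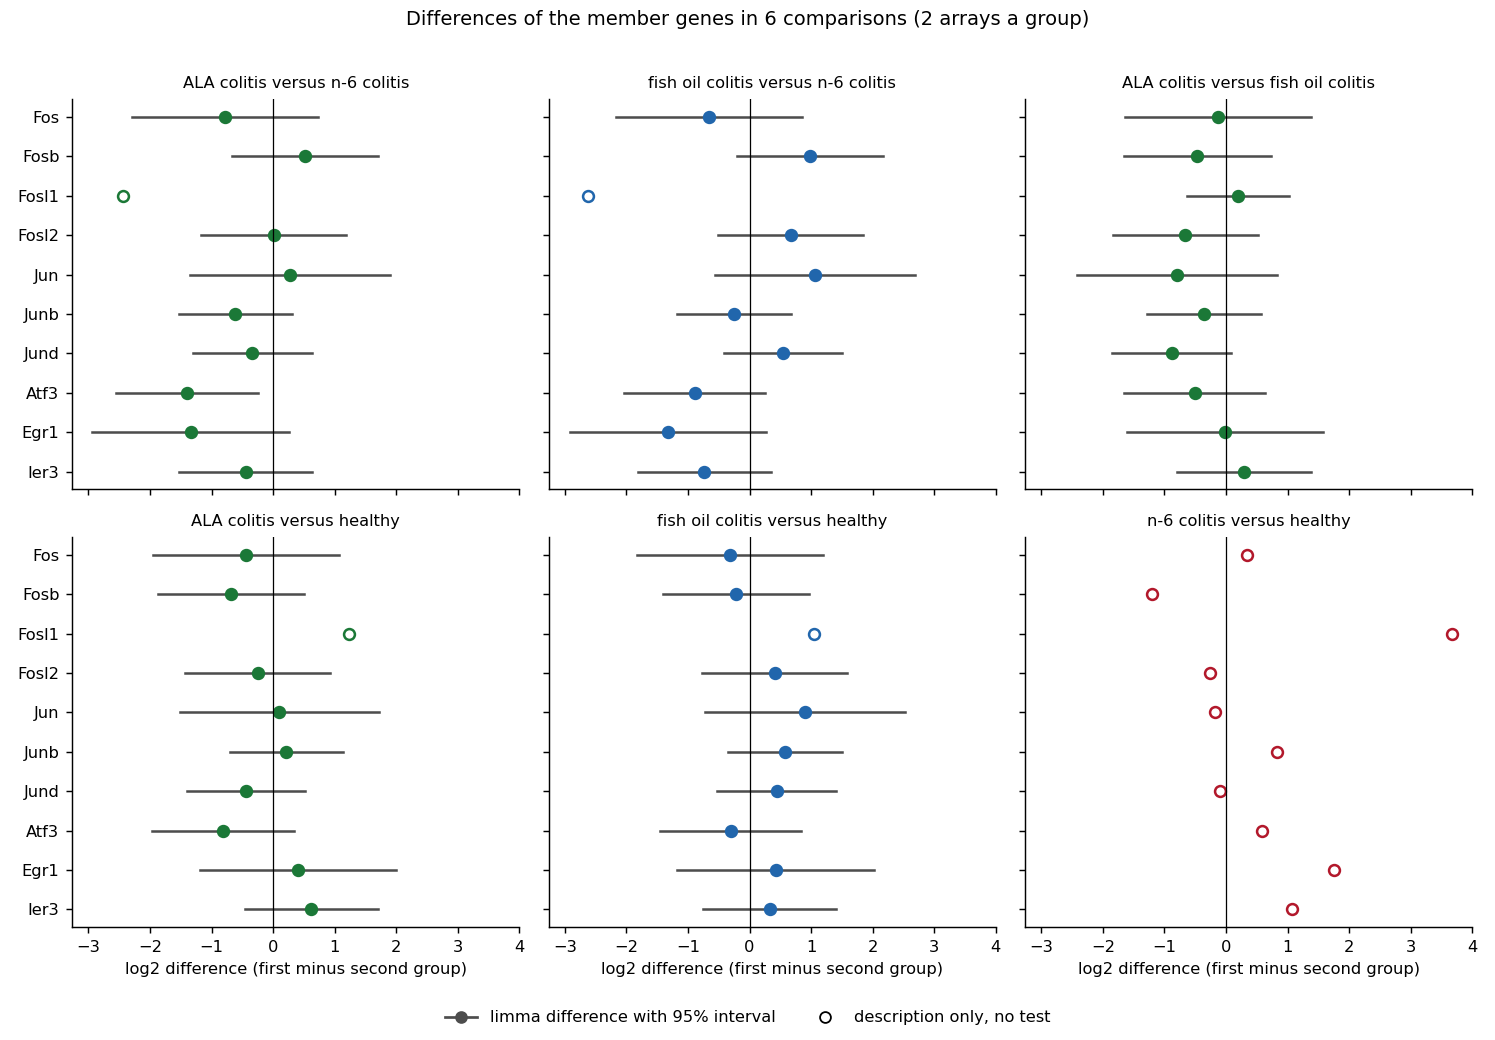
Log2 difference, first minus second group (horizontal axis), of 9 members and Fosb (rows) in 6 comparisons (panels). Filled points carry limma 95% intervals and open points are descriptions without a test; all intervals but that of Atf3 in ALA against n-6 colitis (-2.55 to -0.25) include 0.

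Against healthy colon, members did not lean one way in ALA colitis, where 5 were higher and 4 lower with a median of 0.10 against 0.039 over all genes. Fosl1 and Ier3 lay above without overlap (22.5% of all genes) and Atf3 below (18.1%). In fish oil colitis 7 were higher and 2 (Fos and Atf3) lower, with a median of 0.42 against 0.0032. Fosl1, Fosl2 and Jun lay above without overlap (18.3% of all genes) and none below (20.4%), with each gene at its brightest probe. The dimmer Fosl2 probe went the other way: its fish oil arrays, at -3.15 and -3.14, lay below its healthy arrays, at -2.98 and -2.72, a difference of -0.29. Fosl1 counts here as a description only, since the healthy arrays also took part in its choice. In both comparisons limma called 0 of 8 members tested and 0% of all genes at the adjusted threshold. No member reached an unadjusted p under 0.05, which 1187 genes (6.53% of all) did for ALA and 708 (3.9%) for fish oil.

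In n-6 colitis against healthy colon, the contrast that chose the genes, 6 members were higher and 3 lower, with a median of 0.59 (0.46 without Fosl1) against 0.026 over all genes. Fosl1, Junb, Atf3, Egr1 and Ier3 lay above without overlap, and 23.8% of all genes did so. Egr1 was 1.75 higher on its brighter probe, while its other probe differed by -0.0077 and its arrays overlapped. Ier3 was 1.07 higher. Fos, Fosl2, Jun and Jund overlapped. These counts are descriptions only. The signs of Fos, Fosl2, Jun and Jund turned when 1 array was left out, with ranges of -0.62 to 1.30, -1.01 to 0.49, -1.24 to 0.90 and -0.49 to 0.29 over the arrays left out in turn.

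The gap between the 2 arrays of a group differed from gene to gene and from group to group. Between the n-6 arrays, Fosl1 differed by 0.034, less than 96.5% of all genes. These arrays also took part in its choice, and their spot intensity for Fosl1 before scaling was 159 and 96.7. Jun differed by 2.14 between the n-6 arrays (4.36% of all genes differed by at least this) and Fosl2 by 1.50 (10.6%). Egr1 differed by 0.10 between the same arrays. The median difference of the members between replicates was 0.44 in ALA, 0.52 in fish oil and 0.40 in n-6 colitis, against 0.69 in healthy colon. Over all genes it was 0.48, 0.39 and 0.53 in the same colitis groups, against 0.34 in healthy colon. By these medians the members differed by more than the typical gene in healthy colon and in fish oil colitis, and by less in ALA and n-6 colitis.

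The replicate differences also ran one way. In each group, members were mostly higher on the array with the lower 75th percentile of raw signal: 8 of 9 in ALA, 8 in fish oil and 8 in n-6 colitis, against 7 in healthy colon. Over all genes, 61.0%, 55.1% and 47.6% were higher on the dimmer array of the same colitis groups, and 59.4% in healthy colon. With quantile normalization the counts were 6, 8 and 8 in the colitis groups and 7 in healthy colon, against 49.2%, 45.5%, 47.0% and 49.8% of all genes. The exceptions with the 75th percentile were Egr1 in ALA, Fos in fish oil and Ier3 in n-6 colitis, and Fosl1 and Fosl2 in healthy colon. Members on 1 array are not independent of each other, and what sets the array brightness was not tested.

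**Figure D4:**
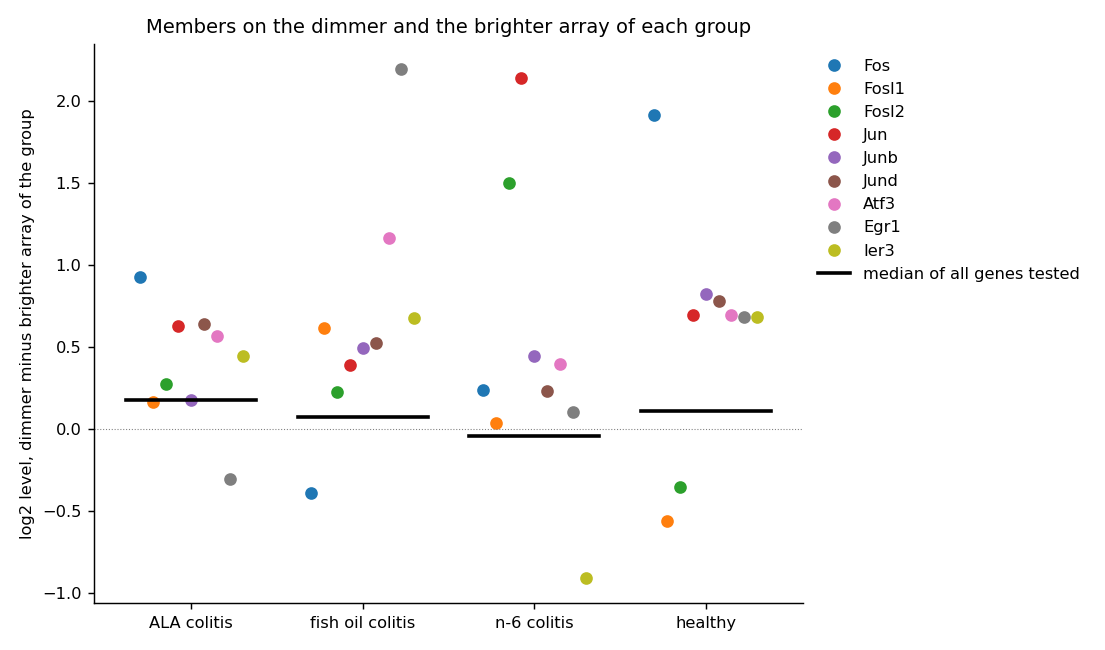
Log2 level on the dimmer array minus that on the brighter array of each group (vertical axis) for the 9 members (coloured points), by group (horizontal axis), with the median of all genes tested as a black line. Points lie above 0 for 8, 8 and 8 members in ALA, fish oil and n-6 colitis, against 7 in healthy colon.

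Other genes of the pathway were followed in 4 lists holding 99 genes tested. Limma called 0 of them at the adjusted threshold in each of the 5 tested comparisons. Unadjusted p-values under 0.05 were reached by 11 in ALA against n-6, 24 in fish oil against n-6, 13 in ALA against fish oil, 15 in ALA against healthy and 6 in fish oil against healthy. Among all genes the shares were 5.79%, 12%, 9.6%, 6.53% and 3.9% in the same order of comparisons.

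The list nearest to FRA-1 holds 26 genes tested of 30 with textbook AP-1 sites or FRA-1 dependence, many of them proteases and growth factors. In fish oil against n-6 colitis 22 of the 26 were lower, with a median of -1.35 against 0.0083 over all genes. Of these, 18 did not overlap, against 23.6% of all genes. The counts include genes that were not well above background on every array. Mmp3, Mmp9 and Il11 were well above it on 3 of the 8 arrays and Mmp12 on 4. Lif, Axl and Tgfb1 were so on 5, 6 and 7. A gene could pass the filter on dim signal through 1 group alone. The collagenase Mmp13 and the stromelysin Mmp10 differed by -3.02 (SE 1.39, limma adjusted p = 0.429) and -4.09 (SE 1.13, adjusted p = 0.410), but Mmp13 read 1.96 and -2.65 on the n-6 arrays and Mmp10 read 1.96 and -1.56.

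In ALA against n-6 colitis, 20 of the same 26 genes were lower, with a median of -0.63 against 0.072 over all genes. Of these, 8 did not overlap, against 13.1% of all genes. The fibronectin receptor subunit Itga5 differed by -2.07 (SE 0.53) and the matrix protein Tnc by -1.98 (SE 0.52), each with a limma adjusted p of 0.838. Tnc read -1.20 and -1.18 in ALA colitis, against 1.63 and -0.042 in n-6 colitis. The cell cycle gene Ccnd1 went the other way, at 1.50 in ALA and 2.02 in fish oil colitis relative to n-6 colitis. Both sets of differences share the n-6 arrays. The list's median was 0.30 in ALA against fish oil, 0.97 in ALA against healthy and -0.0019 in fish oil against healthy. Over all genes the medians were 0.014, 0.039 and 0.0032 in the same order. In n-6 against healthy the list's median was 1.56, against 0.026 over all genes, with 24 of 26 higher. Of these, 15 did not overlap, against 23.8% of all genes. That contrast chose the members, so its values are a description only.

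**Figure D5:**
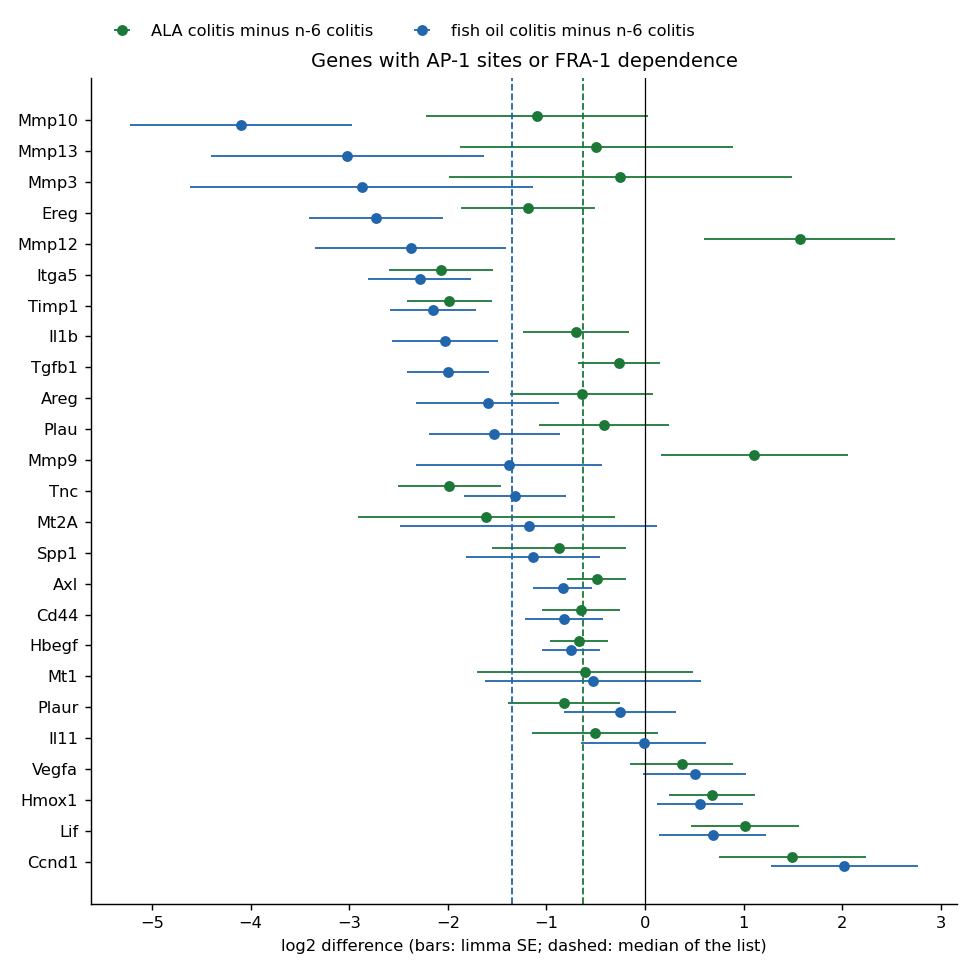
Log2 difference (horizontal axis) of 25 of the 26 genes with AP-1 sites or FRA-1 dependence (rows), for ALA minus n-6 colitis and fish oil minus n-6 colitis. Points are limma differences, bars their SE and dashed lines the medians of all 26, -0.63 and -1.35; none passed the adjusted threshold, and both comparisons use the same n-6 arrays.

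The 21 bZIP partners, all tested, had medians of -0.078 in ALA and -0.44 in fish oil against n-6 colitis. Crem, a cyclic AMP responsive regulator, differed by -1.72 between ALA and n-6 colitis (SE 0.46, limma adjusted p = 0.838). Cebpd, an acute phase regulator, read 5.22 and 3.06 in ALA colitis, 4.94 and 3.20 in fish oil colitis and 5.88 and 5.71 in n-6 colitis, against 2.20 and 1.54 in healthy colon. Its n-6 arrays were the highest, its healthy arrays the lowest, and the ALA and fish oil arrays overlapped. Batf, which pairs with JUN proteins in lymphocytes, differed by -1.70 between fish oil and n-6 colitis (SE 0.45, limma adjusted p = 0.410) and by 1.45 between ALA and fish oil colitis (adjusted p = 0.477). The summed level of 4 B cell markers was 1.66 and 4.13 in ALA, -0.94 and -3.44 in fish oil and 3.82 and -0.49 in n-6 colitis, against -1.09 and -0.82 in healthy colon. That of 4 T cell markers was 1.73 and 3.16, 1.55 and 1.69, and 2.90 and 2.77 in the same colitis groups, against 2.29 and 2.38 in healthy colon. The part of these cells in the Batf levels was not tested.

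Of the other immediate early and early response genes, 32 of 39 were tested, with medians of -0.36 in ALA and -0.40 in fish oil against n-6 colitis. Arc differed by -1.73 and Rhob, a small GTPase, by -1.33 in ALA against n-6 colitis (SE 0.50 and 0.28, both limma adjusted p = 0.838). In fish oil against n-6 colitis Myc, the growth regulator, differed by -1.84 (SE 0.36) and Egr2, a relative of Egr1, by -1.73 (SE 0.55, both adjusted p = 0.410). Egr2 read -0.98 and -1.74 in ALA colitis, -1.69 and -2.00 in fish oil colitis and 0.45 and -0.69 in n-6 colitis, against -2.21 and -3.33 in healthy colon. Its n-6 arrays were the highest.

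Of 23 upstream kinases and SRF or ETS factors, 20 were tested, and their medians stayed near those of all genes, at 0.10 in ALA and -0.036 in fish oil against n-6 colitis. Srf, the factor that binds CArG boxes, differed by -0.68 between ALA and n-6 colitis (SE 0.33, limma adjusted p = 0.874). Map3k5, a kinase upstream of JNK and p38, differed by 0.92 in ALA and 0.95 in fish oil against n-6 colitis (SE 0.49, limma adjusted p = 0.905 and 0.448). Map3k8, a kinase upstream of ERK, read 0.25 and 0.32 in ALA colitis, -0.96 and -0.995 in fish oil colitis and 1.04 and 0.15 in n-6 colitis, against -1.01 and -1.04 in healthy colon. The fish oil and healthy arrays lay close together and below both other groups. Map3k8 differed by -1.57 between fish oil and n-6 colitis (SE 0.36, adjusted p = 0.410).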

How the data were processed

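Spot intensity values came from the deposited scanner files, made with Agilent Feature Extraction 11.5.1.1 per the file headers, with background subtraction and spatial detrending within each array. The deposited value table holds log2 values per gene symbol, set by the authors to about 0 at each array's 75th percentile; no source used here gives its probe summary. Its column medians were -2.89 and -3.15 (ALA), -2.93 and -3.10 (fish oil), -3.14 and -3.15 (n-6) and -2.93 and -3.18 (healthy). It correlated with the log2 signal of the same array at 0.990 to 0.993 across symbols, which settles scale and direction, and it served as an alternative. Samples were grouped by their titles. Control and outlier spots were dropped, repeated spots averaged, and log2 processed signals set relative to each array's 75th percentile. A probe with every spot flagged as an outlier on an array kept its spots there. A probe was kept if, in 1 group or more, both arrays had it well above background (20801 of 30367), with the brightest probe for each gene.

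Limma 3.58.1 in R 4.3.3 fitted all 8 arrays together, with Benjamini-Hochberg adjustment over 18170 genes (threshold 0.05, 4 residual and 3.01 prior degrees of freedom), and was tested on simulated data. There are 5 tested comparisons; n-6 against healthy is descriptive. Named genes of other lists are up to 3 per comparison with the largest difference where none was called; Ccnd1, and any gene given for a comparison other than the one that selected it, were added after their values were seen, and 1 gene that the rule selects is not reported here. The members and lists were chosen with earlier results of these data known. Pairwise intervals are 95%.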

Additional observations from a re-analysis of the deposited data

How the results depend on the processing

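There were 19 alternatives, and in 8 of them 1 array was left out. The other 11 changed the background correction, scaling, filters, probe choice, prior, samples fitted or replicate block, or used the deposited value table. In these 11, limma called 0 of the members tested and 0 of the other listed genes in each of the 5 tested comparisons. Fosl1 was among the members tested only in ALA against fish oil. Where 1 array of a group was left out, the lone array was assumed to vary like the other groups. Deviations of same-numbered arrays correlated between -0.168 and 0.468 over 6 pairs of groups, so the numbers were not taken as pairs, and the fit with the replicate number as a block also called 0. Scaling to the array median moved the median of all genes by -0.20 in ALA against n-6, -0.13 in fish oil against n-6 and 0.14 in n-6 against healthy. Over all genes the count ranged from 0 to 7 in ALA against n-6 and from 0 to 8 in fish oil against n-6.

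Differences of single genes that changed sign, none of them called, were these; the cause was not tested. In ALA against n-6, Fosl2 was -0.19 with the array median and -0.12 with quantiles. In ALA against fish oil, Fosl1 was -0.35 with normexp, -0.092 with quantiles and -0.28 in the value table, and Egr1 was 0.095, 0.013 and 0.12 with the same settings and 0.25 with the mean of the probes. In fish oil against healthy, Fosb was 0.34 with normexp and Fosl2 -0.012 in the value table. In n-6 against healthy, which was not tested, Jund was 0.045 with the array median.

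With each array left out in turn, ALA minus n-6 ranged from -0.74 to 0.76 for Fosl2, -0.80 to 1.35 for Jun and -0.90 to 0.0076 for Ier3. Fish oil minus n-6 ranged from -0.079 to 1.42 for Fosl2 and -0.0029 to 2.14 for Jun. ALA minus fish oil ranged from -0.59 to 0.34 for Fos, -0.12 to 0.50 for Fosl1, -1.09 to 0.074 for Atf3, -1.11 to 1.08 for Egr1 and -0.044 to 0.63 for Ier3. ALA minus healthy ranged from -1.40 to 0.52 for Fos, -0.24 to 0.45 for Jun and -0.19 to 0.63 for Junb. Fish oil minus healthy ranged from -1.27 to 0.65 for Fos, -0.87 to 0.43 for Fosb, -0.89 to 0.27 for Atf3, -0.67 to 1.52 for Egr1 and -0.016 to 0.67 for Ier3. In the untested comparison of n-6 with healthy, Fos, Fosl2, Jun and Jund changed sign, with the ranges given above. Signal over background limits Fosl1 most, since 2 of its 8 arrays were not well above background.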
